A study of Homo sapiens with 9 samples.

Results

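The genes described here are 40 genes of the endoplasmic reticulum (ER) that fold, modify, export or degrade secretory proteins, together with the sensors and transcription factors that control them. They are 40 of the 19918 genes in the count files. They were listed by function with earlier results of these data known, and *CREB3L1* was selected on its own measured rise with the siRNA si025. All 40 passed the filter on low counts and are among the 12810 genes tested. The values of *CREB3L1* with si025 are therefore given as a description with no test.

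RNA-seq had been performed on VCaP, a human prostate cancer cell line. The 3 groups received 100 pmol of a control siRNA (genotype WT in the labels), of si025 or of si033. The latter siRNAs were both directed at exon 1 of the lncRNA *IGF1R-AS1* (genotype *IGF1R-AS1* knockdown in the labels), and cells were collected 72 h after transient reverse transfection. Each group held 3 libraries of this cell line, and library totals ranged from 11649811 to 28492259 counts. The target lncRNA was not analysed here, so its knockdown was not measured. The prostate luminal markers *KLK2* and *HOXB13* exceeded 1 CPM, the count relative to the size of the library, in every library. None of 4 leukocyte and 3 endothelial markers did so, with *CD3E* and *CDH5* at 0 counts in all 9 libraries and the sums of each list at 2.25 CPM or less. Of 4 fibroblast markers, *COL1A1* and *LUM* did so. The fibroblast markers summed to 16.4 to 18.9 CPM in control, 36.4 to 43.8 CPM with si025 and 8.90 to 11.2 CPM with si033, and their part in the results below was not tested. In bulk RNA, fewer cells that express a gene and less RNA per cell cannot be told apart.

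As background, newly made secretory proteins are threaded into the ER through the SEC61 channel, trimmed, glycosylated and folded by chaperones and disulfide enzymes, and exported in COPII vesicles. Resident proteins that escape are returned by KDEL receptors, and proteins that fail to fold are sent to the proteasome. When unfolded proteins accumulate, the sensors IRE1 (encoded by *ERN1*), ATF6 and PERK start the unfolded protein response, which raises chaperone genes through the transcription factors XBP1 and ATF6. The CREB3 family (*CREB3*, *CREB3L1*, *CREB3L2* and others) are related factors that are anchored in the ER membrane and released by proteolysis in the Golgi. Prostate epithelium is a secretory tissue.

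To show which members carry the control elements of this response, RefSeq promoter sequences (GRCh38.p14, 250 bases before to 50 after a gene's start, all listed starts) were searched on both strands. The table held 35 of the 40 members. The ER stress response element (ERSE), CCAAT and CCACG separated by 9 bases of any kind, was found in 7 members, *HSPA5*, *HSP90B1*, *CALR*, *CANX*, *PDIA6*, *XBP1* and *ERO1B*, against 0.151% of 9948 tested genes and 0.0769% of 35116 promoters. The second form, ERSE-II, ATTGG and CCACG separated by 1 base, was found in *HYOU1*, *HERPUD1* and *SDF2L1*, against 0.141% of tested genes and 0.0541% of promoters. A word bound by XBP1, TGACGTGG (UPRE), was found in *HYOU1*, *SSR3*, *SEC23A* and *KDELR3*, against 1.21% of tested genes and 0.729% of promoters. These shares include the members themselves, which are 7 of the 15 tested genes with an ERSE and 3 of the 14 with an ERSE-II. The UPRE of *HYOU1* overlaps its upstream ERSE-II.

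The following stretches lie upstream of a start listed for the gene and are written 5′ to 3′ on the gene's strand, with the matched words in capitals. *HSPA5* (chr9:125241344-125241593, minus strand) and *HSP90B1* (chr12:103930160-103930409, plus strand) are shown over all 250 bases, because they encode the central ER chaperones and were among the most lowered members. *HYOU1* (chr11:119057259-119057408, minus strand) is shown because it holds both ERSE-II copies and the UPRE.
HSPA5: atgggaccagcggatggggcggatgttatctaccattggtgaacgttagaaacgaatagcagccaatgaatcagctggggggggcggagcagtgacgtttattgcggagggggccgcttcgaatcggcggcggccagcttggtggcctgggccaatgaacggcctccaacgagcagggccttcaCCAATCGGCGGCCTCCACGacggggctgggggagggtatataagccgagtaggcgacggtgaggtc
HSP90B1: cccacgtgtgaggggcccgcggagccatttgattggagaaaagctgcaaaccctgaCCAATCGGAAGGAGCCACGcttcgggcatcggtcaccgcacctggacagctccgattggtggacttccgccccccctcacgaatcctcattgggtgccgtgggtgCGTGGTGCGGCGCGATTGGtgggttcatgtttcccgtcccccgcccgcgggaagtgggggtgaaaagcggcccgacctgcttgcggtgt
HYOU1: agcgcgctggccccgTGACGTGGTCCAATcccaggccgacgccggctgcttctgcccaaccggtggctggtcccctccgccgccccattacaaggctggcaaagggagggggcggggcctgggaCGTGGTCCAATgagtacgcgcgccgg

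For the other members with an ERSE or ERSE-II, and for *KDELR3* among those with a UPRE, the match and up to 15 bases on each side are shown, so that those that fell with the siRNAs (*CALR*, *CANX*, *PDIA6*, *HERPUD1* and *SDF2L1*) can be set beside those that did not (*XBP1*, *ERO1B* and *KDELR3*). Their positions are chr19:12938369-12938417 for *CALR*, chr5:179698763-179698811 for *CANX*, chr2:10812838-10812886 for *PDIA6*, chr16:56932010-56932050 for *HERPUD1* and chr22:21642099-21642139 for *SDF2L1*. *XBP1* lies at chr22:28800588-28800636, *ERO1B* at chr1:236282168-236282208 and *KDELR3* at chr22:38468035-38468072. *PDIA6*, *XBP1* and *ERO1B* are on the minus strand and the others on the plus strand. The stretches of *CANX* and *PDIA6* lie wholly inside the span of the counted genes (chr5:179678631-179731641 and chr2:10783391-10837977). Those of *HSPA5*, *HSP90B1* and *KDELR3* overlap an edge of it.
CALR: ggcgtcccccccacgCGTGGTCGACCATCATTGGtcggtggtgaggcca
CANX: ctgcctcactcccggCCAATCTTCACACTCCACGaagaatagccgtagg
PDIA6: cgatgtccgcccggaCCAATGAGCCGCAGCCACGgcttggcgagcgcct
HERPUD1: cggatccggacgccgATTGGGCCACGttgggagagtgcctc
SDF2L1: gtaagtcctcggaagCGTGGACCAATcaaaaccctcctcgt
XBP1: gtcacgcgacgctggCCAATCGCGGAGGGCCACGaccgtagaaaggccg
ERO1B: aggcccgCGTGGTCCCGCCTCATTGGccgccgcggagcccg
KDELR3: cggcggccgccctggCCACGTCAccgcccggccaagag

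The members covered a wide range of levels. Per kilobase of exon (RPKM, computed from the counts and the exon length in the files), *HSP90B1*, the ER form of HSP90, was highest in control cells at 1185 ± 34.1 RPKM (SD, n = 3). It was followed by the calcium-binding lectin chaperones *CALR* (824 ± 19.9) and *CANX* (491 ± 9.60), and by *HSPA5* (435 ± 6.19), which encodes BiP. The lowest were *CREB3L1* (0.666 ± 0.125) and *KDELR3* (0.711 ± 0.129), which differed by less than their spread. With si025, *CREB3L1* moved from rank 40 to rank 34 and reached 7.14 RPKM, between *ATF6* (8.44) and *SSR1* (6.61).

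**Figure D1:**
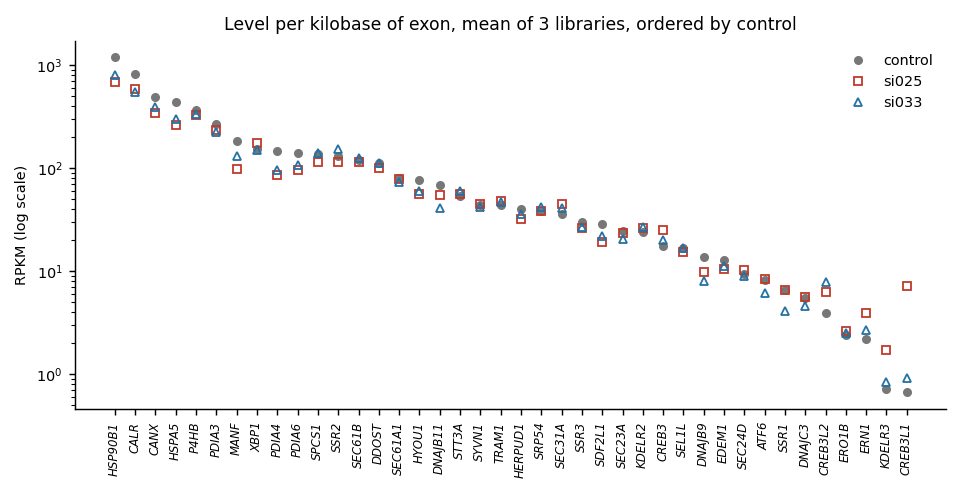
Mean level of each of the 40 members in RPKM (log scale) in control (filled circles), si025 (squares) and si033 (triangles), ordered by control, each mean over 3 libraries. The span runs from 1185 RPKM for *HSP90B1* to 0.666 RPKM for *CREB3L1* in control, and *CREB3L1* with si025 stands at 7.14 RPKM.

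Differential expression was tested with edgeR's quasi-likelihood test over all genes. Genes whose *p* value stayed under 0.05 after Benjamini-Hochberg adjustment are described as called, as higher or as lower. Log2 fold changes are given with standard errors (SE), and group levels as TMM-normalised CPM with SD over 3 libraries. The siRNA contrasts share the same control libraries. With si025, 20 of the 39 members other than *CREB3L1* were lower (51.3%) and 6 were higher (15.4%), whereas 28.8% of all tested genes were lower and 32.9% higher (61.7% called). With si033, 21 of the 40 members were lower (52.5%) and 9 higher (22.5%), against 27.8% and 26.9% of all genes (54.8% called). The 9 include *CREB3L1*, whose control libraries also entered its choice. The median log2 fold change over the 39 members without *CREB3L1* was -0.15 with si025 and -0.13 with si033, and over all tested genes 0.017 and 0.003. Scaled by library totals only, these member medians were -0.10 and -0.07, against 0.069 and 0.057 over all genes. In that scaling, 18 members were lower and 11 higher with si025, against 24.1% and 37.6% of all genes (3091 and 4817). For si033 it gave 18 members lower and 11 higher, against 22.5% and 32.9% of all genes. Those shares are 2888 lower and 4211 higher genes, where TMM gave 3566 and 3449.

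**Figure D2:**
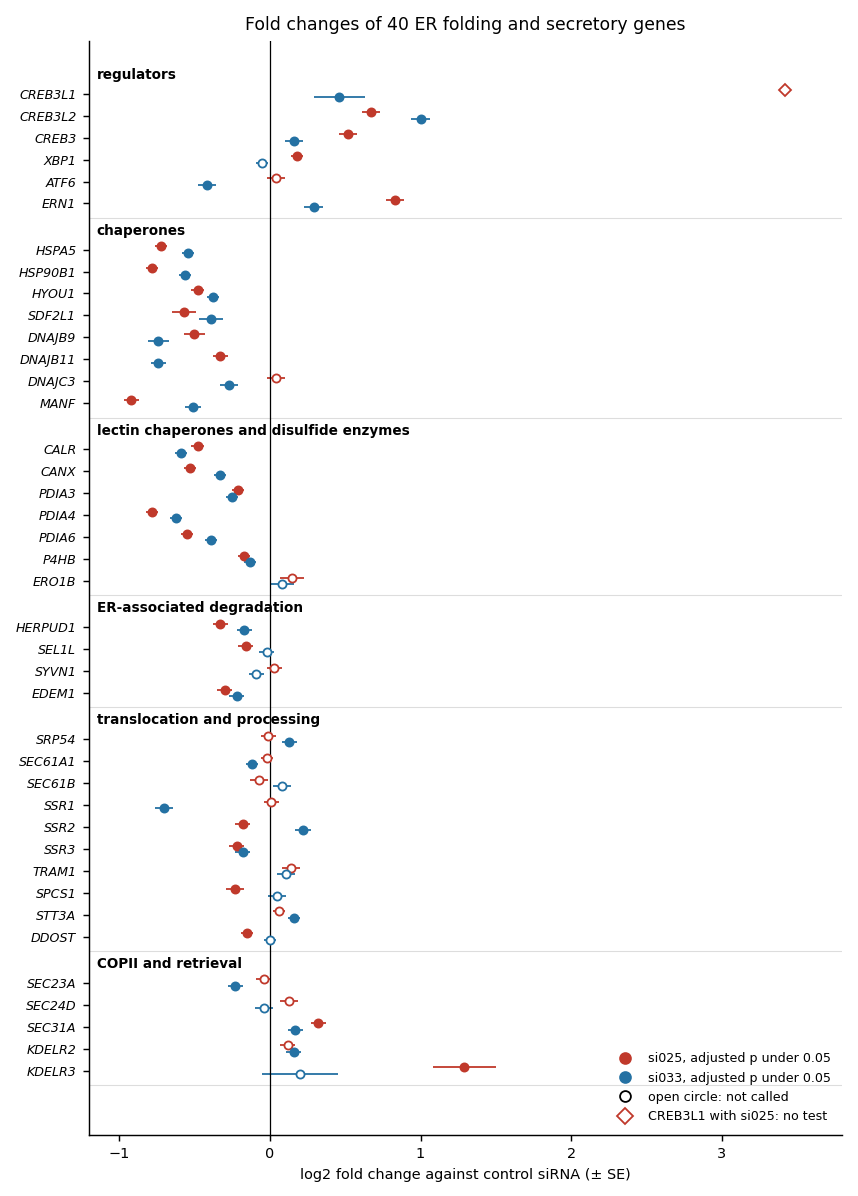
Log2 fold change of each member against the control siRNA, with si025 in red and si033 in blue, bars showing ± SE of the fit over 9 libraries and open circles marking genes that were not called. Most chaperones and disulfide enzymes lie left of 0, with *MANF* at -0.92 and *PDIA4* at -0.78 with si025. The exceptions are *DNAJC3* with si025 (0.04) and *ERO1B* (0.15 and 0.08). With si033, 4 of 6 regulators are called higher, against 26.9% of all tested genes. Of these calls, those of *CREB3L1* and *CREB3* are lost without some single libraries and by DESeq2. The *CREB3L1* call also uses the control libraries that entered its choice. *CREB3L1* stands at 3.42 with si025 (open diamond, no test).

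The changes differed by role. The summed level of the 8 chaperones was 5880 ± 117 CPM in control, 3555 ± 120 CPM with si025 (60.5% of control) and 4043 ± 86.8 CPM with si033 (68.8%). The 7 lectin chaperones and disulfide enzymes summed to 7049 ± 136, 5198 ± 94.5 (73.7%) and 5480 ± 132 CPM (77.7%). These sums rest mainly on the abundant genes *HSP90B1*, *HSPA5*, *CANX* and *CALR*. The 10 genes of translocation and processing summed to 1611 ± 25.9, 1550 ± 25.2 and 1636 ± 50.1 CPM, that is 96.2% and 102% of control. The 5 regulators without *CREB3L1* summed to 438 ± 6.94, 530 ± 3.52 (121%) and 459 ± 18.2 CPM (105%), sums in which *XBP1* is the largest term. With *CREB3L1*, chosen for its rise with si025, the percentages were 126% and 105%.

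**Figure D3:**
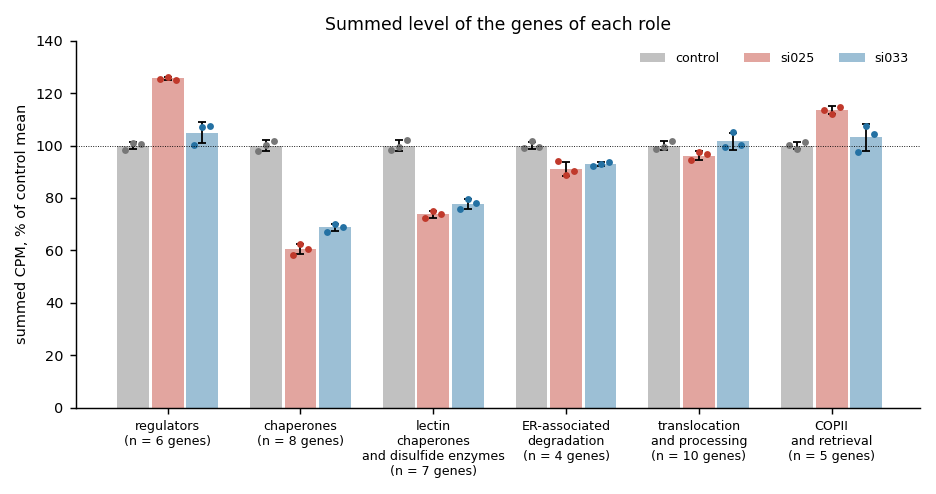
Summed CPM of the members of each role as a percentage of the control mean (bars, mean of 3 libraries; error bars, SD; points, libraries). Chaperones fell to 60.5% with si025 and 68.8% with si033, whereas translocation and processing genes stayed at 96.2% and 102%, and the regulator bars include *CREB3L1*.

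Among the regulators, members of the CREB3 family and *ERN1* were higher, whereas *XBP1* and *ATF6* followed other patterns. *CREB3L1* (chromosome 11, 46277638 to 46321422, plus strand), whose product is known for driving secretory pathway and matrix genes, had 2.44, 1.67 and 2.16 CPM in the control libraries, 23.4, 21.2 and 22.7 CPM with si025, and 3.13, 2.79 and 2.795 CPM with si033. These correspond to 28, 23 and 56 counts in control and 300, 428 and 513 counts with si025. All 3 si025 libraries stood far above the other 6, a 10.7-fold difference from control (log2 3.42) that is the reason for its choice. The si033 comparison uses the control libraries that also entered the choice of *CREB3L1*, so its test is not independent of that choice. With si033 the 3 libraries also lay above all control libraries, with a log2 fold change of 0.46 (SE 0.17, adjusted *p* = 0.0265). That call rested on single libraries: it was not made without control replicate 2 (0.36, adjusted *p* = 0.112), control replicate 3 (0.51, 0.0519), si033 replicate 1 (0.42, 0.0572) or si033 replicate 3 (0.50, 0.0510), nor by DESeq2 (0.0577), and the adjusted *p* ranged from 0.0137 to 0.112 over 16 alternatives.

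*CREB3L2*, its closest relative, had the opposite order of siRNAs. The libraries held 36.4, 41.3 and 37.0 CPM in control, 63.3, 61.2 and 57.9 CPM with si025, and 74.8, 74.0 and 79.9 CPM with si033. The groups did not overlap. On the log2 scale the rise was 0.67 for si025 (SE 0.06, adjusted *p* = 1.82e-09) and 1.0 for si033 (SE 0.06, adjusted *p* = 1.84e-12), and the direct difference between the siRNAs was -0.34 (SE 0.06, adjusted *p* = 1.74e-05). *CREB3*, the founding member, rose from 32.7 ± 0.831 CPM to 46.6 ± 1.82 CPM with si025 (0.52, SE 0.06, adjusted *p* = 9.88e-08). Its value with si033, 36.9 ± 2.097 CPM (0.16, adjusted *p* = 0.0288), was not called without control replicate 1 (0.17, 0.0552), control replicate 3 (0.15, 0.0904), si033 replicate 1 (0.15, 0.0678) or si033 replicate 2 (0.14, 0.0941), nor by DESeq2 (0.0677), with a range from 0.00467 to 0.0941 over the alternatives.

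*ERN1* (chromosome 17, 64039142 to 64130819, minus strand) encodes IRE1, the kinase and endoribonuclease that splices *XBP1* mRNA. It had 20.2, 19.6 and 20.9 CPM in control, 35.7, 36.1 and 36.3 CPM with si025 and 24.2, 24.3 and 25.6 CPM with si033. The order control, si033, si025 held without overlap. It rose by 77.4% with si025 (log2 0.83, SE 0.06, adjusted *p* = 6.35e-11) and by 22.2% with si033 (0.29, SE 0.06, adjusted *p* = 6.41e-04), and the siRNAs differed (0.54, SE 0.06, adjusted *p* = 4.59e-08). *XBP1*, the transcription factor activated by that splicing, changed little, from 282 ± 2.55 CPM to 320 ± 6.13 CPM with si025 (0.18, SE 0.04, adjusted *p* = 7.04e-04) and 272 ± 12.6 CPM with si033 (-0.05, SE 0.04, adjusted *p* = 0.367). Counts per gene do not separate spliced from unspliced *XBP1*. *ATF6*, the sensor that is itself a transcription factor, was at 65.0 ± 2.20 CPM in control, 67.2 ± 3.56 CPM with si025 (0.04, adjusted *p* = 0.593) and 48.5 ± 5.09 CPM with si033 (-0.42, SE 0.06, adjusted *p* = 7.48e-06).

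**Figure D4:**
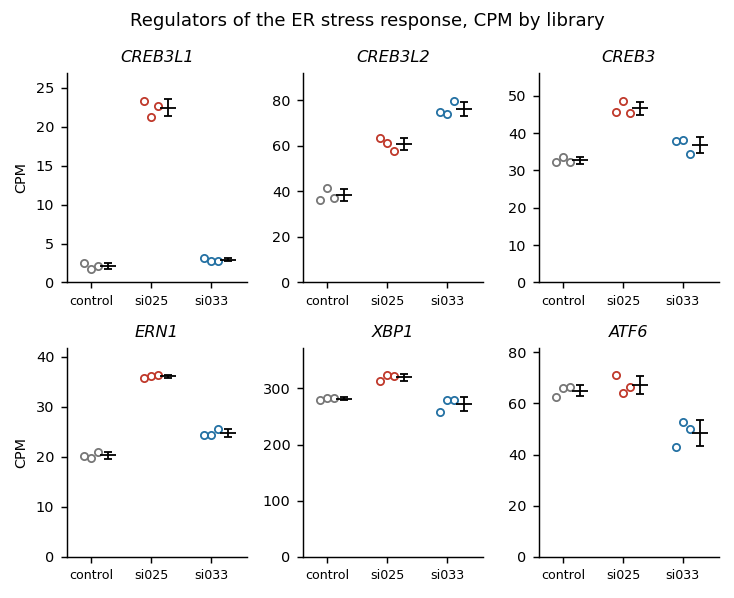
CPM of the 6 regulators in each of 9 libraries (circles), with the mean ± SD of each group beside them (black) and axes starting at 0. *CREB3L1* is at 21.2 to 23.4 CPM with si025 and at 3.13 CPM or less in the other 6 libraries, whereas *CREB3L2* is highest with si033.

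Most of the 8 listed chaperones of the ER lumen were lower. All 8 were called lower with si033 (against 27.8% of all tested genes) and 7 of 8 with si025 (against 28.8%), the exception being *DNAJC3*. Of 14 further chaperones in a wider list given below, 2 were lower with si025 (14.3%) and 5 with si033 (35.7%), and 2 were higher with each siRNA. *HSPA5* (chromosome 9, 125234848 to 125241387, minus strand) encodes BiP, the HSP70 of the ER, and carries the ERSE printed above. Its libraries held 1697, 1743 and 1735 CPM in control, 1008, 1093 and 1049 CPM with si025 and 1172, 1210.5 and 1186 CPM with si033. Every siRNA library lay below every control library, and *HSPA5* fell by 39.1% with si025 (log2 -0.72, SE 0.04, adjusted *p* = 2.70e-13) and by 31.1% with si033 (-0.54, SE 0.04, adjusted *p* = 4.98e-11).

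*HSP90B1* (GRP94), which folds integrins and Toll-like receptors, had 3303, 3379 and 3496 CPM in control, 1895, 2035 and 1986 CPM with si025 and 2237, 2354 and 2318 CPM with si033. The groups again did not overlap. It fell by 41.9% and 32.1% (log2 -0.78 and -0.56, SE 0.04 each, adjusted *p* = 6.36e-14 and 2.43e-11). Both central chaperones were lower with si025 than with si033, by -0.18 for *HSPA5* (adjusted *p* = 3.32e-04) and by -0.22 for *HSP90B1* (adjusted *p* = 2.65e-05). *HYOU1*, the nucleotide exchange factor of BiP, fell from 372 ± 18.9 CPM to 268 ± 3.83 and 286 ± 4.33 CPM (-0.48 and -0.38).

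*MANF*, a secreted ER stress protein that binds BiP, showed the largest decrease of any member with si025. The libraries had 173, 179 and 181 CPM in control, 89.3, 103 and 88.4 CPM with si025, and 124, 126 and 124 CPM with si033. All si025 libraries lay below all si033 libraries, which lay below control. It fell by 47.3% with si025 (log2 -0.92, SE 0.05, adjusted *p* = 7.81e-13) and by 29.9% with si033 (-0.51, SE 0.05, adjusted *p* = 1.96e-08), and the difference between siRNAs was -0.41 (SE 0.05, adjusted *p* = 6.39e-07). *SDF2L1*, a BiP cochaperone, was at 25.1 ± 1.85, 16.9 ± 1.26 and 19.3 ± 1.67 CPM (-0.57 and -0.39).

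The J-domain proteins, which stimulate BiP, had another order. *DNAJB11* (ERdj3) had 115, 110 and 120 CPM in control (mean 115 ± 4.68), 88.7, 95.5 and 91.3 CPM with si025 and 68.6, 69.5 and 69.6 CPM with si033. Here the si033 libraries were the lowest. The log2 fold changes were -0.33 (SE 0.05, adjusted *p* = 3.11e-06) and -0.74 (SE 0.05, adjusted *p* = 1.67e-11), and the direct difference was 0.41 (SE 0.05, adjusted *p* = 2.23e-07). *DNAJB9* (ERdj4), which represses IRE1, was at 34.8 ± 1.23, 24.7 ± 1.35 and 20.5 ± 2.46 CPM, lower with si025 (-0.50, SE 0.07, adjusted *p* = 2.84e-06) and si033 (-0.74, SE 0.07, adjusted *p* = 1.44e-08). *DNAJC3* (p58IPK), which restrains PERK, was 37.4 ± 0.710 CPM in control, 38.2 ± 1.44 CPM with si025 (0.04, adjusted *p* = 0.592) and 31.0 ± 2.67 CPM with si033 (-0.27, SE 0.06, adjusted *p* = 9.77e-04).

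Of the 7 lectin chaperones and disulfide enzymes, 6 were lower with each siRNA (85.7%) and the exception was *ERO1B*. The share of all tested genes was 28.8% with si025 and 27.8% with si033. *PDIA4* (ERp72) was the most lowered, from 439 ± 3.35 CPM to 255 ± 3.44 CPM with si025 (log2 -0.78, SE 0.04, adjusted *p* = 1.23e-13) and 285 ± 8.66 CPM with si033 (-0.62, SE 0.04, adjusted *p* = 8.52e-12). *CALR* had 1557, 1549.7 and 1619 CPM in control, 1081, 1188 and 1123 CPM with si025 and 1023, 1066 and 1053 CPM with si033. It fell by 28.2% and 33.5% (log2 -0.48 and -0.59, SE 0.04 each, adjusted *p* = 5.57e-10 and 2.39e-11). Its membrane-bound counterpart *CANX* fell by 30.9% and 20.4%.

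*PDIA6*, an isomerase that acts on IRE1, was lower at -0.55 and -0.39, and *PDIA3*, the partner of calreticulin and calnexin, at -0.21 and -0.25 (SE 0.04 each, adjusted *p* = 1.64e-04 and 2.03e-05). *P4HB*, protein disulfide isomerase itself, changed least of the called members in this group, by -0.17 (adjusted *p* = 4.26e-04) and -0.13 (adjusted *p* = 0.00830), the latter call being lost with library totals only (-0.07, adjusted *p* = 0.1025). *ERO1B*, an oxidase that recharges disulfide isomerases, was at 13.7 ± 0.927, 15.3 ± 0.4997 and 14.5 ± 0.789 CPM and was not called with either siRNA (0.15 and 0.08, adjusted *p* = 0.124 and 0.439), but was called higher with si025 by library totals only (0.20, adjusted *p* = 0.0372). Its promoter holds an ERSE.

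Genes of ER-associated degradation changed less. *HERPUD1*, a stress-induced scaffold of the degradation complex, was at 77.8 ± 1.82 CPM in control, 61.9 ± 2.03 CPM with si025 (log2 -0.33, SE 0.05, adjusted *p* = 7.50e-06) and 69.4 ± 3.001 CPM with si033 (-0.17, SE 0.05, adjusted *p* = 0.00751). The si033 call was lost without si033 replicate 3 (-0.15, adjusted *p* = 0.0514) and with library totals only (-0.12, 0.0538). Its range over the alternatives was from 0.00348 to 0.0538. *EDEM1*, which extracts misfolded glycoproteins, fell by 18.5% and 14.2% (adjusted *p* = 9.32e-06 and 3.70e-04). *SYVN1*, the ubiquitin ligase HRD1, was not called with si025 (0.03, adjusted *p* = 0.632) or si033 (-0.09, adjusted *p* = 0.0991). Its partner *SEL1L* was lower with si025 (-0.16, SE 0.05, adjusted *p* = 0.00844). That call was lost without si025 replicate 2 (-0.11, adjusted *p* = 0.0527) and with library totals only (-0.11, 0.0669), in a range from 0.00274 to 0.0669. With si033, *SEL1L* was at -0.02 (adjusted *p* = 0.756).

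Of the 10 genes of the translocon and its associated enzymes, 4 were lower with si025 (40%), and 3 were lower and 3 higher with si033 (30% each). These shares stand beside 28.8% of all tested genes lower with si025, and 27.8% lower and 26.9% higher with si033. The widest change was in the translocon-associated protein (TRAP) complex. *SEC61A1*, the pore of the channel, was at 289 ± 6.16, 286 ± 2.86 and 267 ± 2.03 CPM. Its change with si033 of -0.12 (adjusted *p* = 0.0173) was not called without control replicate 2 (-0.09, 0.0992) or si033 replicate 1 (-0.10, 0.0567). Nor was it called with upper quartile scaling (-0.09, 0.0631) or library totals only (-0.06, 0.176), in a range from 0.00705 to 0.176. *SEC61B*, a small subunit of the channel, was at -0.07 with si025 (adjusted *p* = 0.327) and 0.08 with si033 (adjusted *p* = 0.243, but 0.0444 with library totals only). *TRAM1* assists the insertion of nascent chains. *TRAM1* was at 0.14 with si025 (adjusted *p* = 0.0601) and 0.11 with si033 (adjusted *p* = 0.150). It was called with si025 without si025 replicate 2 (0.18, 0.0244), si033 replicate 1 (0.14, 0.0265) or si033 replicate 2 (0.14, 0.0277). The si025 value was also called with upper quartile scaling (0.16, 0.027), library totals only (0.19, 0.0115), no filter (0.14, 0.0159) and a fit of 2 groups (0.12, 0.0286). With si033, *TRAM1* was called without si033 replicate 1 (0.20, 0.00709) and with library totals only (0.16, 0.0323). The ranges were from 0.0115 to 0.288 and from 0.00709 to 0.760.

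The TRAP subunits did not move together. *SSR1*, the alpha subunit, had 64.4, 61.2 and 66.6 CPM in control, 63.5, 63.1 and 67.2 CPM with si025 and 39.4, 40.5 and 39.0 CPM with si033. The control and si025 libraries overlapped and the si033 libraries stood apart below them. *SSR1* fell by 38.5% with si033 (log2 -0.70, SE 0.06, adjusted *p* = 2.70e-10), was at 0.01 with si025 (adjusted *p* = 0.889), and differed between the siRNAs by 0.71 (SE 0.05, adjusted *p* = 1.17e-10). *SSR2*, the beta subunit, had 143, 152 and 154 CPM in control, 126, 136 and 133 CPM with si025 and 170, 184 and 169 CPM with si033.

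For *SSR2* the groups did not overlap and the siRNAs went in opposite directions, -0.18 with si025 (SE 0.05, adjusted *p* = 0.00255) and 0.22 with si033 (SE 0.05, adjusted *p* = 6.38e-04). *SSR3*, the gamma subunit, was lower with both, at -0.22 and -0.18 (SE 0.05, adjusted *p* = 5.60e-04 and 0.00365). The signal peptidase subunit *SPCS1* and the oligosaccharyltransferase subunit *DDOST* were lower with si025 (-0.23 and -0.15, adjusted *p* = 8.40e-04 and 0.00573) and were at 0.05 and -0.00 with si033. The *DDOST* call was lost with library totals only (-0.10, adjusted *p* = 0.0512). *STT3A*, the catalytic subunit of oligosaccharyltransferase, was higher with si033 (0.16, adjusted *p* = 0.00183). *SRP54*, which binds signal peptides on the ribosome, was at 0.13 with si033 (adjusted *p* = 0.0216), a call lost without control replicate 1 (0.12, 0.0807) or si033 replicate 3 (0.11, 0.108), in a range from 0.00187 to 0.108.

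**Figure D5:**
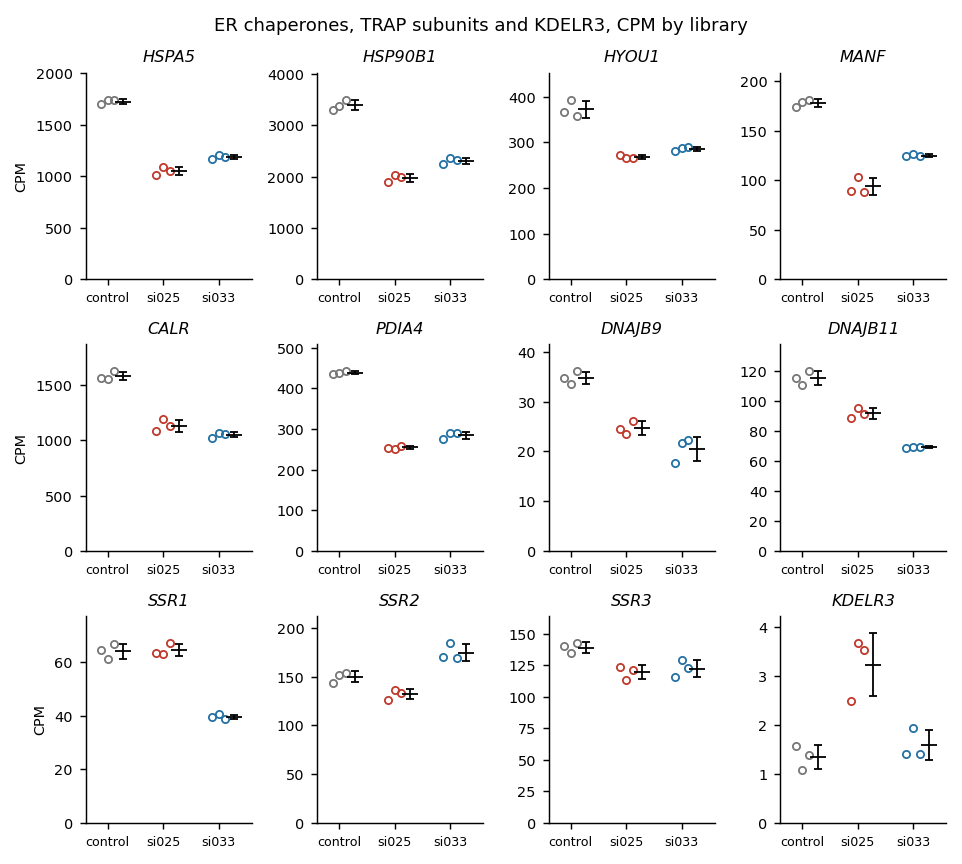
CPM of 8 ER chaperones and disulfide enzymes, 3 TRAP subunits and *KDELR3* in each of 9 libraries (circles), with group mean ± SD (black) and axes starting at 0. The chaperones and disulfide enzymes shown lie below control with both siRNAs, *SSR1* is low with si033 at 39.0 to 40.5 CPM, and *SSR2* moves in opposite directions.

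Among the export and retrieval genes, *KDELR3*, a receptor that returns KDEL proteins to the ER, rose with si025. It had 1.57, 1.09 and 1.39 CPM in control, 2.49, 3.67 and 3.54 CPM with si025 and 1.40, 1.93 and 1.41 CPM with si033, or 18, 15 and 36 counts in control and 32, 74 and 80 counts with si025. All si025 libraries were above all others, although si025 replicate 1 was nearer to them. On the log2 scale the rise was 1.29 for si025 (SE 0.21, adjusted *p* = 1.59e-05). For si033 the value was 0.20 (SE 0.25, adjusted *p* = 0.517), and the direct difference was 1.09 (SE 0.21, adjusted *p* = 8.28e-05). *KDELR3* is 1 of 4 members with a UPRE, and the other 3, *HYOU1*, *SSR3* and *SEC23A*, were at -0.48, -0.22 and -0.04 with si025.

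*SEC31A*, a subunit of the outer COPII coat, rose from 175 ± 3.87 CPM to 219 ± 7.63 CPM with si025 (0.32, SE 0.05, adjusted *p* = 3.41e-06) and 196 ± 11.3 CPM with si033 (0.17, SE 0.05, adjusted *p* = 0.00518). *SEC23A*, of the inner coat, was lower with si033 (-0.23, SE 0.05, adjusted *p* = 4.10e-04) and at -0.04 with si025 (adjusted *p* = 0.540). *SEC24D*, a cargo adaptor of the inner coat, was at 0.13 with si025 (adjusted *p* = 0.0701) and -0.04 with si033 (adjusted *p* = 0.596). It gained a si025 call without si033 replicate 1 (0.13, 0.0426), with upper quartile scaling (0.15, 0.0347) and with library totals only (0.18, 0.0144). *KDELR2*, a more abundant KDEL receptor, was at 0.12 with si025 (adjusted *p* = 0.0511) and 0.16 with si033 (adjusted *p* = 0.0155). Its si025 value was called without si025 replicate 1 (0.16, 0.0184), with upper quartile scaling (0.15, 0.0216) and with library totals only (0.17, 0.00688). Its si033 call was lost without control replicate 2 (0.14, 0.0723) or si033 replicate 2 (0.14, 0.0586). The ranges were from 0.00688 to 0.223 and from 0.00178 to 0.0723.

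Set beside the promoter words, 10 members held an ERSE or ERSE-II, and 8 of these were lower with si025 and 8 with si033. The other 2, *XBP1* and *ERO1B*, were not lower with either siRNA. The words were also present in 19 tested genes outside the list, of which 6 were lower and 3 higher with si025, and 4 were lower and 4 higher with si033. For comparison, 28.8% of all tested genes were lower and 32.9% higher with si025, and 27.8% and 26.9% with si033. Of all members counted, 51.3% were lower with si025 and 52.5% with si033. A link between the words and the decreases was not tested.

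To place the members in the wider pathway, 117 further genes with the same roles were counted, of which 113 passed the expression filter. With si025, 27 were higher (23.9%) and 20 lower (17.7%), and with si033, 23 were higher (20.4%) and 43 lower (38.1%), with median log2 fold changes of 0.01 and -0.08. Of all tested genes, 32.9% were higher and 28.8% lower with si025, and 26.9% and 27.8% with si033. With library totals only, the si025 split was 43 higher and 14 lower (all genes 4817 and 3091), and the si033 split 33 and 37 (all genes 4211 and 2888). Among the 14 further chaperones, si025 gave 2 increases and 2 decreases (14.3% each), and si033 gave 2 increases (14.3%) and 5 decreases (35.7%). *PPIB*, a cyclophilin of the ER, was lower with both siRNAs (-0.48 and -0.31), and *CRELD2*, an ER stress gene, with si025 (-0.66, adjusted *p* = 1.58e-08; si033 -0.13, adjusted *p* = 0.0881). *FKBP9*, a prolyl isomerase, rose with both (1.05 and 0.68).

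Of the 8 further regulators that were tested, 1 was called with si025, as higher, and 6 with si033, all as lower. Among all tested genes, 61.7% were called with si025 (32.9% higher) and 54.8% with si033 (27.8% lower). The prostate-expressed family member *CREB3L4* was at 69.1 ± 3.50 CPM in control, 125 ± 5.55 CPM with si025 (0.86, SE 0.05, adjusted *p* = 1.73e-12) and 51.2 ± 1.87 CPM with si033 (-0.42, SE 0.06, adjusted *p* = 9.96e-07). It thus changed in opposite directions, with a direct difference of 1.29 (SE 0.05, adjusted *p* = 1.54e-15). *DDIT3* (CHOP), a target of the PERK branch, was at 37.5 ± 1.73, 36.4 ± 1.40 and 25.96 ± 1.08 CPM (-0.03, adjusted *p* = 0.637, and -0.53, adjusted *p* = 1.64e-07).

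*PPP1R15A* (GADD34), which reverses the translational block of that branch, was at -0.14 (adjusted *p* = 0.0594) and -0.51 (adjusted *p* = 1.24e-06). *ATF4*, the factor translated when PERK is active, was at -0.06 (adjusted *p* = 0.178) and -0.15 (adjusted *p* = 0.00440), and the PERK gene *EIF2AK3* at 0.11 (adjusted *p* = 0.103) and -0.11 (adjusted *p* = 0.1002). *CREB3L3* had 0 counts in all 9 libraries and *ATF6B* at most 9, so neither was tested.

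In the machinery that targets ribosomes to the ER, both subunits of the signal recognition particle receptor were lower with si033. *SRPRB* fell from 73.2 ± 1.99 to 40.6 ± 0.849 CPM (-0.86, SE 0.05, adjusted *p* = 3.23e-12) and *SRPRA* from 171 ± 4.01 to 96.8 ± 3.08 CPM (-0.82, SE 0.05, adjusted *p* = 6.93e-13). With si025 they were at -0.05 and 0.01 (adjusted *p* = 0.363 and 0.794), and the siRNAs differed by 0.81 and 0.83 (adjusted *p* = 4.87e-12 and 2.32e-13). The fourth TRAP subunit *SSR4* followed *SSR2* with si033 (0.33, adjusted *p* = 2.24e-05) and not *SSR1*. *SPCS3*, of the signal peptidase, fell with si025 (-1.27, SE 0.07, adjusted *p* = 4.67e-13) and si033 (-0.72, SE 0.07, adjusted *p* = 6.16e-09).

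Other large changes by the naming rule were decreases of the sulfhydryl oxidase *QSOX1* (-0.95 and -0.31) and, with si025, of the thioredoxin-related *TMX4* (-0.75). *ERO1A*, the main disulfide oxidase, and *DNAJC1* were lower with si033 (-0.59 and -0.56) and at 0.03 and 0.09 with si025. Increases with both siRNAs were found for the cargo receptor *SURF4* (0.56 and 0.67), the degradation cofactor *NPLOC4* (0.63 and 0.70), *TXNDC11* (0.76 and 0.28) and *MIA2*, which helps load large cargo (0.69 and 0.62).

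Between the siRNAs themselves, 30 of the 39 members other than *CREB3L1* differed, 15 higher and 15 lower with si025 (38.5% each), against 31.2% and 29.7% of all tested genes (60.9% called). The widest differences above 0 were those of *KDELR3*, *SSR1* (0.71), *ERN1* (0.54) and *ATF6* (0.46, SE 0.06, adjusted *p* = 1.36e-06), and the widest below 0 those of *MANF* (-0.41), *SSR2* (-0.40) and *CREB3L2* (-0.34). For *HYOU1* the difference was -0.10 (SE 0.04, adjusted *p* = 0.0591). It was called in 6 of 16 alternatives, namely without control replicate 2, control replicate 3 or si033 replicate 1, with size factors, with upper quartile scaling and by DESeq2, over a range from 0.0337 to 0.158. *SDF2L1* (-0.18, adjusted *p* = 0.0623) was called in 5, among them without control replicate 1, si025 replicate 1 or si033 replicate 3, over a range from 0.0199 to 0.312. For *PDIA3* the difference was 0.05 (SE 0.04, adjusted *p* = 0.355), which does not show that the siRNAs acted alike on it.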

How the data were processed

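The authors aligned reads to hg38 with HISAT2 2.1.0, per the labels. Per the file headers, the deposited counts were made with featureCounts 1.5.2, as read pairs over exons of RefSeq genes on the sense strand, whereas the methods of the study name GENCODE. The counts are raw whole numbers for 19918 genes. Differential expression was computed with edgeR 4.0.16 (R 4.3.3; quasi-likelihood test, TMM, default expression filter, Benjamini-Hochberg over 12810 genes) in 1 fit of 9 libraries with 3 group means. SE was derived from the F statistic. The fit was tested on simulated data. Groups came from sample titles. The study calls the replicates biological, and the *p* values measure the spread between these libraries only. The named genes were all 40 members, 7 further regulators, and the 5 most raised and 5 most lowered called genes of the wider list per siRNA. The members and lists were chosen with earlier results of these data known. DESeq2 1.42.0, 3 other scalings, no filter, fits of 2 groups, a replicate block and leaving out each library were the 16 alternatives. In the wider list, 4 genes were matched by an older symbol. Of the luminal marker list, some results are not reported here.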

Additional observations from a re-analysis of the deposited data

Results flagged for a closer look

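Members whose response differed between the siRNAs by the direct test (si025 minus si033, log2, edgeR quasi-likelihood test) were marked for a closer look, and no explanation was weighed. Higher with si025 than with si033 were *KDELR3* (1.09), *SSR1* (0.71), *ERN1* (0.54), *ATF6* (0.46), *DNAJB11* (0.41), *CREB3* (0.35), *DNAJC3* (0.31), *DNAJB9* (0.25), *XBP1* (0.23), *SEC23A* (0.19), *SEC24D* (0.17), *SEC31A* (0.15), *SYVN1* (0.12), *CALR* (0.11) and *SEC61A1* (0.10). Lower with si025 were *MANF* (-0.41), *SSR2* (-0.40), *CREB3L2* (-0.34), *SPCS1* (-0.28), *HSP90B1* (-0.22), *CANX* (-0.20), *HSPA5* (-0.18), *PDIA4* (-0.16), *PDIA6* (-0.16), *HERPUD1* (-0.16), *SRP54* (-0.15), *DDOST* (-0.15), *SEC61B* (-0.15), *SEL1L* (-0.14) and *STT3A* (-0.10).

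Of these differences, 11 lost the call when 1 library was left out. *SEC61A1* lost it without any library other than si025 replicate 2, at adjusted *p* values up to 0.113. *SYVN1* lost it without any control library, si025 replicate 1, si033 replicate 2 or si033 replicate 3 (up to 0.159). *SEC61B* lost it without si025 replicate 1, si025 replicate 3 or si033 replicate 2 (up to 0.145), and *STT3A* without si025 replicate 1, si025 replicate 3 or si033 replicate 1 (up to 0.0937). *CALR* lost it without si025 replicate 2 or si033 replicate 1 (0.106 and 0.108), *SEL1L* without si025 replicate 2 or si033 replicate 3 (0.109 and 0.149) and *DNAJB9* without si025 replicate 3 or si033 replicate 1 (0.0594 and 0.0627). *SEC24D* and *SEC31A* lost it without si033 replicate 1 (0.161 and 0.0724), *SRP54* without si033 replicate 3 (0.0629) and *HERPUD1* without si033 replicate 2 (0.0526).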

How the results depend on the processing

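Over 16 alternatives, no called member changed direction. Of 39 members with si025, 32 kept their side of the threshold under every alternative, as did 31 of 40 with si033 and 26 of 39 between the siRNAs. Counts of members and of the wider list stayed within 1.5 times the TMM value except with library totals only, which gave 11 members and 43 wider genes higher with si025. Leaving out 1 library gave 19 to 20 members lower with si025 and 20 to 21 with si033. The medians over all 40 members, *CREB3L1* included, were -0.108, -0.120 and -0.037 (si025, si033, si025 against si033). With library totals only the first pair was -0.057 and -0.068. The third moved, by more than a small replicate SD, to -0.048 with size factors (in edgeR and DESeq2), -0.045 with upper quartile scaling and -0.044 with 2 groups. Leaving out 1 library gave -0.124 to -0.076, -0.124 to -0.100 and -0.063 to -0.009, the third being -0.009 without si033 replicate 2, -0.019 without si025 replicate 1 and -0.063 without si033 replicate 1. The cause was not tested. Libraries with the same replicate number did not deviate together (correlations from -0.0214 to 0.0729 for 9 pairs). These correlations cannot show whether such libraries were handled together. With a replicate block, 20 members were lower and 6 higher with si025, 21 and 9 with si033, and 16 and 15 between the siRNAs, where *SDF2L1* gained a call. Depth limits *KDELR3* and *CREB3L1*, with 15 to 81 counts in the control and si033 libraries.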

Other observations

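An ERSE also occurred in promoters of genes outside the lists, named here for that word after their values were seen. *SERP1*, which stabilizes membrane proteins at the translocon under stress, was raised from 117 ± 0.818 CPM to 227 ± 9.86 CPM with si025 (log2 0.96, SE 0.05, adjusted *p* = 2.02e-13, edgeR) and 188 ± 13.4 CPM with si033 (0.68, SE 0.05, adjusted *p* = 1.10e-10), the reverse of *HSPA5* and *HSP90B1*. *EIF2A*, an initiation factor, was lower, at -0.21 (adjusted *p* = 5.75e-04) and -0.15 (adjusted *p* = 0.00858). *FICD*, which inactivates BiP by AMPylation, was at 3.51 ± 0.790, 2.98 ± 0.188 and 2.78 ± 0.490 CPM and was not called (adjusted *p* = 0.349 and 0.185). *ALG12*, a mannosyltransferase of glycan assembly, was not called either (-0.12 and 0.08), nor were *TMEM120A* and *ZNF17*. *TRIM5* was higher with si033 (0.40, adjusted *p* = 0.0175).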
